A study of Mus musculus with 8 samples.

Results

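The ErbB receptors and the ligands of the epidermal growth factor (EGF) family were examined in H3K27ac peak lists of 4 mouse breast tumors. The 10 genes, chosen by name, were the 4 receptors Egfr, Erbb2, Erbb3 and Erbb4 and the 6 ligands Areg, Ereg, Btc, Nrg1, Hbegf and Tgfa, out of 21938 annotated protein-coding genes. All 10 were found in the annotation and all 10 had a peak in at least 1 tumor within the window used, which was the annotated gene body plus 50 kb on either side. Of all protein-coding genes, 18693 had a peak in such a window.

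H3K27ac, the acetylation of histone H3 at lysine 27, marks active promoters and enhancers and was mapped by chromatin immunoprecipitation and sequencing (ChIP-seq). Both control tumors came from Balb/c mice of the genotype PyMT;Rag1KO and both test tumors from Balb/c mice of the genotype K14-TSLPtg;PyMT;Rag1KO, 2 tumors per group, and each tumor came from its own mouse. PyMT is the polyoma middle T oncogene under the mouse mammary tumor virus promoter, the Rag1 deletion shared by both groups leaves the host without T and B cells of its own, and thymic stromal lymphopoietin (TSLP) in the test group was driven by the keratin 14 promoter. Both groups had been given sorted CD4+ T cells when 4 weeks old, and the labels do not give the age at which tumors were taken. Sample titles call the test samples cyst and the control samples tumor.

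ErbB receptors are receptor tyrosine kinases that pair with each other on binding an EGF-like ligand and then signal through the RAS-MAPK and PI3K-AKT routes. Erbb2 has no known ligand of its own and acts as the favored partner of the others, while Erbb3 has little kinase activity and signals through its partner. In the mammary gland, amphiregulin (Areg) and Egfr are known for ductal growth, and neuregulin (Nrg1) and Erbb4 for the milk-producing lobules.

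The lists held 69861 peaks in control 1 and 67850 in control 2, against 65763 in test 1 and 59762 in test 2, covering 73.1, 67.8, 73.0 and 64.3 Mb. The lists give positions only, so read depth and peak height are unknown, and deeper sequencing of a tumor can itself widen or add peaks. Test 2 stood lowest in both totals. Promoters of luminal epithelial markers carried a peak for 7 or 8 of 8 genes in every tumor. Fewest promoters of myoepithelial, fibroblast, endothelial and myeloid markers had a peak in test 2, where none of 7 myoepithelial, 7 fibroblast and 5 endothelial genes had one, against 5, 2 and 3 genes in control 1, 1, 3 and 3 in control 2, and 3, 1 and 2 in test 1. Of 7 myeloid markers 5, 4, 4 and 3 had one in control 1, control 2, test 1 and test 2, and of 5 adipocyte markers none had one in any tumor. Among 6 T cell markers, 1 promoter had a peak in control 1 and none had one in the other tumors.

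The promoters of 3 receptors and of Areg, the ligand whose promoter peak differed between tumors, are shown first, since the presence of a peak at the start differed between tumors for Erbb4 and Areg and not for Egfr and Erbb2. A peak counted as a promoter peak when it lay within 1 kb of the annotated gene start. Sequences are from RefSeq for GRCm38.p6, the same assembly as mm10, and run 5′ to 3′ from 250 bases before to 50 bases after the RefSeq start. Capitals mark matches to any of 7 short motifs searched on both strands, namely the TATA box with the letters TATAAA, the CRE with TGACGTCA, the AP-1 motif with TGANTCA, the GC box with GGGCGG, the CCAAT box, the STAT motif with TTCNNNGAA and the AP-2 motif with GCCNNNGGC. The table held promoters of 6 of the 10 genes (Egfr, Erbb2, Erbb4, Areg, Btc and Tgfa).
Egfr, chr11:16751953-16752252, plus strand: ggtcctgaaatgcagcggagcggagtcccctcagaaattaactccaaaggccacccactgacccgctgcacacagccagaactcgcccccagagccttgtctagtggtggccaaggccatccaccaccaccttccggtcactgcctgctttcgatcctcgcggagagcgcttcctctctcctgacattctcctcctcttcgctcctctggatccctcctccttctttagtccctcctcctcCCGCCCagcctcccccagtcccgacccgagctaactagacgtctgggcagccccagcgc
Erbb2, chr11:98412234-98412533, plus strand: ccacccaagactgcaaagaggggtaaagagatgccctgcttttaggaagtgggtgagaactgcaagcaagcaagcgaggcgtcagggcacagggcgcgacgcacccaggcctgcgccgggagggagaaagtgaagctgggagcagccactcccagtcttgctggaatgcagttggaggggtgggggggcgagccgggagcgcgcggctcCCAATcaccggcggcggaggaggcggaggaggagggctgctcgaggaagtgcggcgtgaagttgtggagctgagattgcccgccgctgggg
Erbb4, chr1:69108010-69108309, minus strand: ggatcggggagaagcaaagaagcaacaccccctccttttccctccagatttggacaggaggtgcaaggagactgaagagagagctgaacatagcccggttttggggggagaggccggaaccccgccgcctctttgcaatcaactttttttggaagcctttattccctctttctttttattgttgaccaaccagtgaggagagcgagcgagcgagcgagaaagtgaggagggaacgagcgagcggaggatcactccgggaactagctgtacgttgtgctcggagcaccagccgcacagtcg
Areg, chr5:91139349-91139648, plus strand: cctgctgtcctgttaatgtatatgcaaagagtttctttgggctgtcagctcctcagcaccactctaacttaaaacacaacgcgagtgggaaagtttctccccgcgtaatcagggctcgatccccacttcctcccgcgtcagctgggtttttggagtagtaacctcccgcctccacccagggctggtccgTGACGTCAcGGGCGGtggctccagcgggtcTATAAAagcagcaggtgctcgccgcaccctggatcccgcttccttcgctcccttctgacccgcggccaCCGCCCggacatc

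Among the promoters printed, G and C made up 62.3% of bases for Egfr, 66% for Erbb2, 55.3% for Erbb4 and 59.3% for Areg. The median over 32851 mouse promoters was 52.7%. Those of Btc and Tgfa were not compared, so no link with promoter peaks can be read from these values. Counting from the RefSeq start, Egfr had a GC box in reverse complement at −9 to −4 and Erbb2 a CCAAT at −41 to −37. The RefSeq start of Erbb2 lay 14 bp downstream of the GENCODE start used for distances below, and those of the other 3 genes coincided. Erbb4 held none of the 7 motifs. The Areg promoter held a CRE at −61 to −54, a GC box at −52 to −47, a TATA box at −31 to −26 and a second GC box, in reverse complement, at 38 to 43. None of these matches overlapped. The CRE letters occur in 1.79% of all promoters, the TATA box in 13.6%, the GC box in 35.7%, CCAAT in 37.4%, AP-1 in 7.81%, STAT in 8.30% and AP-2 in 16.6%. Tgfa, not printed, held a GC box and an AP-2 match. These matches describe the letters alone.

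A further 3 stretches carry differences between tumors around Ereg and Areg, the genes for epiregulin and amphiregulin, which lie in tandem on chromosome 5. The first is the only peak at the Areg promoter, found in test 2. The other 2 are the bases shared by both control tumors in regions that had no peak in either test tumor. The last of them has ATTGG, the reverse complement of CCAAT, in capitals, and the other 2 held none of the 7 motifs.
Areg promoter peak of test 2, chr5:91139235-91139417, plus strand: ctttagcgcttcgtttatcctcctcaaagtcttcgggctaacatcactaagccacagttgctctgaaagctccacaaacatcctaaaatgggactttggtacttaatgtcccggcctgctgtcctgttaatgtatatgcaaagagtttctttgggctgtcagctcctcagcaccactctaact
Control tumors, upstream of Ereg, chr5:91038037-91038194, plus strand: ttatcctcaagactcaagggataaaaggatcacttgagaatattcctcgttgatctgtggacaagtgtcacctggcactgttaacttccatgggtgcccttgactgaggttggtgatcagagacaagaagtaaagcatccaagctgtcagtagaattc
Control tumors, between Ereg and Areg, chr5:91101317-91101457, plus strand: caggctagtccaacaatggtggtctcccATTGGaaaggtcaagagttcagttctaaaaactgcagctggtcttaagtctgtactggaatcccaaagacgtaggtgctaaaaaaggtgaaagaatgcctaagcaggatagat

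Of the 10 gene starts, 6 had a promoter peak in all 4 tumors, those of Egfr, Erbb2, Erbb3, Btc, Hbegf and Tgfa, where 49.6% of all 21938 protein-coding promoters did. Of the receptors only Erbb4 lacked it, and of the ligands Areg, Ereg and Nrg1 did. Control 1 had promoter peaks at 7 of the 10 genes, control 2 at 6, test 1 at 6 and test 2 at 7. The genes at which tumors differed were Erbb4, with a peak in control 1 alone, and Areg, with a peak in test 2 alone.

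Coverage, the percent of window bases inside peaks, was the graded measure of acetylated sequence. In bulk tumor tissue, fewer cells of a type and less acetylation per cell cannot be told apart. Coverage averaged 6.56% over the 10 windows in control 1 and 5.79% in control 2, against 6.04% in test 1 and 5.89% in test 2. Over all 18693 genes with a peak the averages were 6.84%, 6.75%, 7.23% and 6.12%. The mean difference, test minus control, was −0.211 percentage points over the 10 genes, and their median difference was 0.0709 points against 0.0192 over all genes. Receptors had a median difference of 0.188 points and ligands of −0.108 points. In 1 of the 10 windows (Btc) both test tumors exceeded both control tumors, where 17.3% of all genes did. In 2 windows (Hbegf and Erbb4) both control tumors exceeded both test tumors, where 13% of all genes did. With 2 tumors per group the exact two-sided permutation test cannot give a p-value below 0.333, so no single gene could pass a threshold of 0.05. The p-values here rest on the 6 possible splits of these 4 mice and do not measure the spread between them.

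**Figure D1:**
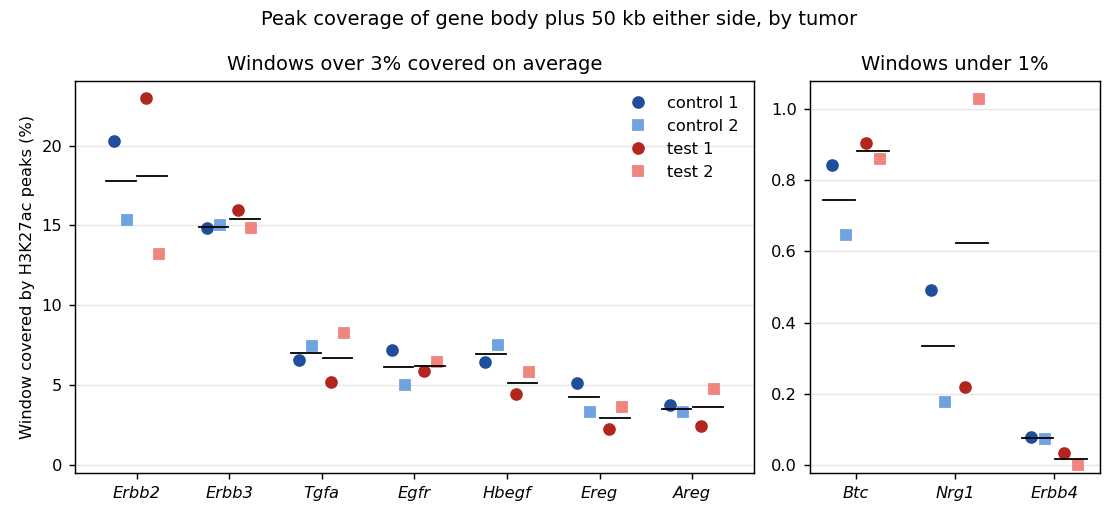
Percent of each gene's window (gene body plus 50 kb on either side) covered by H3K27ac peaks in each tumor, with a black line at each group's mean; the right panel has its own scale. Erbb2 ranged from 13.2% to 23.0%, Erbb3 stayed between 14.8% and 16.0%, and Btc, Nrg1 and Erbb4 lay near or under 1%.

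Among the receptors, Erbb2 had the most acetylated surroundings on average and also the widest spread. Its window was covered to 20.3% in control 1 and 15.3% in control 2, against 23.0% in test 1 and 13.2% in test 2. The test tumors held both the highest and the lowest value, so the groups overlapped. The group means of 17.8% ± 3.5 (SD, n = 2) in control and 18.1% ± 6.93 (SD, n = 2) in test tumors differed by 0.31 points, far below the SD of 6.33 points over the 4 ways of pairing the tumors across groups (exact permutation p = 1). The sign of this difference depended on the window, at −1.93 points for the gene body alone. The average over the 4 tumors was higher than that of 92.8% of the 18693 genes with a peak in the window. Erbb2 spans chr11:98412470-98437716 on the plus strand, and 13 of its 21 regions, where a region is the union of touching or overlapping peaks of the 4 tumors, had a peak in all 4.

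Much of the Erbb2 window belonged to its neighbors, since 5 starts of other genes, among them Grb7, lay inside it and only 5 of the 21 regions were nearest to the Erbb2 start. The widest region, 5134 bp long, ran from −21821 to −16688 bp relative to the Erbb2 start, nearest to Pnmt, and had 4975, 4303, 5134 and 5057 bp of peak in control 1, control 2, test 1 and test 2. Inside the gene, an exon and intron region 4844 to 9256 bp past the start had 3788, 3030, 4413 and 3079 bp. In both, test 1 had the most peak bases. The promoter peak was 1385, 1144, 1595 and 1204 bp wide, again widest in test 1 and overlapping between groups. Test 2 had short peaks at places where control 1 and test 1 had wide peaks, such as 161 bp against 1115 and 810 bp in the region from −6412 to −5091 bp. All 3 annotated Erbb2 starts, including one 14610 bp inside the gene, had a peak in all 4 tumors.

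Erbb3 had nearly the same coverage in the 4 tumors. It was 14.8% in control 1 and 15.0% in control 2, against 16.0% in test 1 and 14.9% in test 2. Test 1 stood highest and test 2 between the control tumors, and the difference of 0.50 points was smaller than the SD of 0.656 points over the pairings (exact permutation p = 0.667). Both group means, 14.9% ± 0.128 in control and 15.4% ± 0.793 in test tumors (SD, n = 2), lay within 1 point of each other. Erbb3, at chr10:128567523-128589652 on the minus strand, has a single annotated start. One acetylated domain of 7505 bp ran from −1074 to 6430 bp relative to that start, the widest region of all 10 windows, and held 7314, 6847, 7482 and 7491 bp of peak. It was unbroken in 3 tumors and split into 3 peaks in control 2. This was the only one of the 8 regions of the window nearest to Erbb3, and 5 others lay within 1 kb of the start of another gene. When coverage was taken over shorter windows, both test tumors exceeded both control tumors, with a difference of 1.08 points for 10 kb flanks and 2.03 points for the gene body alone. In the domain itself control 1, at 7314 bp, lay closer to the test tumors, at 7482 and 7491 bp, than to control 2, at 6847 bp. The share of all genes called in such shorter windows is not given here.

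Egfr carried a chain of intronic peaks. Its window was covered to 7.18% in control 1 and 5.05% in control 2, against 5.88% in test 1 and 6.48% in test 2. Both test tumors fell between the control tumors, and the means of 6.11% ± 1.51 in control and 6.18% ± 0.424 in test tumors (SD, n = 2) were 0.065 points apart (exact permutation p = 1). With 100 kb flanks the difference was −0.42 points. Egfr spans 166.0 kb at chr11:16752203-16918158 on the plus strand. Of 23 regions 12 had a peak in all 4 tumors and 16 were nearest to the Egfr start, with 15 lying in introns. The widest, 4018 bp, lay in an intron 55042 to 59059 bp past the start and held 4018, 2395, 2752 and 2694 bp of peak, most in control 1. Control 1 also had the widest promoter peak, 3041 bp, against 1879 bp in control 2, 2846 bp in test 1 and 2295 bp in test 2. The 3 clustered starts at the gene's 5′ end had a peak in all 4 tumors, and the 2 starts 125947 and 152982 bp downstream had none in any tumor.

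Erbb4 was nearly bare of acetylation over its 1076 kb body (chr1:68032186-69108059, minus strand). Among the 18693 genes with a peak in the window, leaving out those without one, its mean coverage was above that of 1.46%. Peaks covered 942 bp in control 1 and 873 bp in control 2, against 390 bp in test 1 and none in test 2, or 0.0801%, 0.0742%, 0.0332% and 0% of the window. Both control tumors thus exceeded both test tumors, with a difference of −0.0606 points (exact permutation p = 0.333, the smallest possible), but the values rest on 3 narrow regions. A region 1382 to 1920 bp past the start was found in 3 tumors with 346, 413 and 390 bp and was absent from test 2. The promoter peak of control 1 spanned 596 bp from 453 to 1048 bp past the start, outside the bases printed above, and a peak of 460 bp deep in an intron was seen in control 2 alone. When only peaks at least 1 kb wide were counted, Erbb4 had no coverage in any tumor. Mean coverage of the myoepithelial, fibroblast and endothelial marker windows was also lowest in test 2, at 5.25%, 2.36% and 2.82%, against 7.42% to 8.24%, 3.46% to 3.68% and 3.32% to 3.91% in the other tumors. Of these windows 3 of 7, 3 of 7 and 3 of 5 were higher in both control tumors, beside 13% of all genes, and 1 fibroblast window, that of Fap, was higher in both test tumors, beside 17.3%. Windows at 0% in test 2 were those of Oxtr, Cdh5 and Emcn, those of Col1a2 and Dcn, which were at 0% in test 1 too, and that of Lum, at 0% in every tumor, while Krt5 had 6.41% and 2.39% in control against 8.32% and 4.48% in test tumors. The fibroblast and endothelial means came mostly from a single window each. In control 1, control 2, test 1 and test 2, that of Col1a1 had 17.6%, 16.2%, 18.2% and 11.8%, with a promoter peak in control 1 alone. That of Pecam1 had 17.1%, 14.8%, 15.2% and 13.0%, with no promoter peak in either test tumor. The part of the myoepithelial, fibroblast and endothelial markers in the Erbb4 values was not tested.

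**Figure D2:**
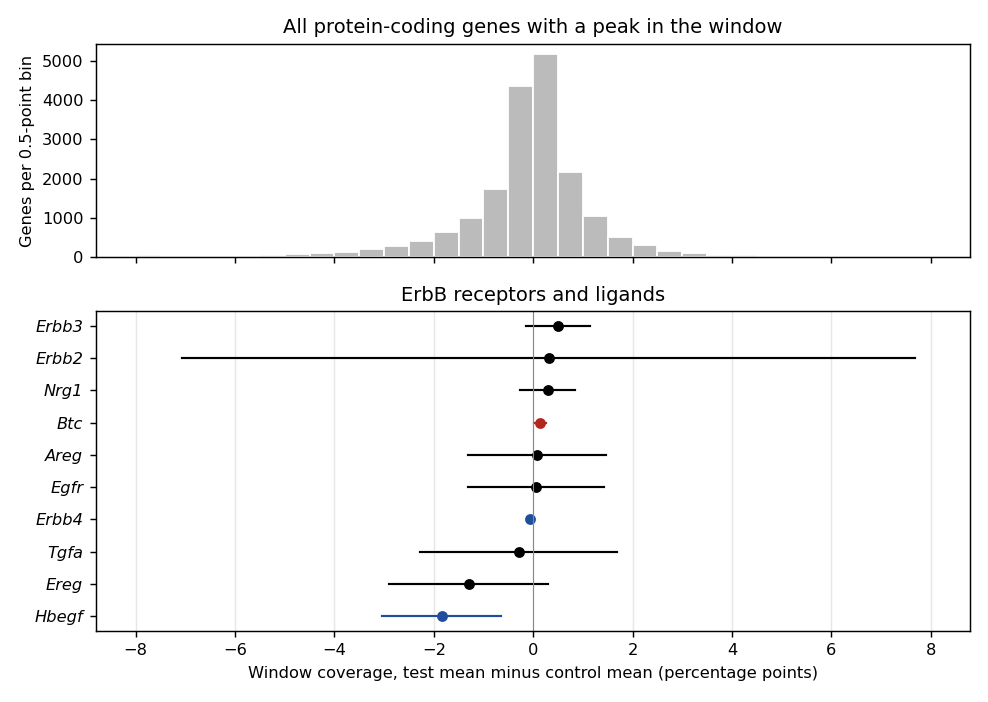
Upper panel, number of protein-coding genes by difference in window coverage (test mean minus control mean, percentage points); lower panel, the same difference for each ErbB gene as a point, with a line from the lowest to the highest of the 4 test and control pairings. Lines of 7 genes cross 0, that of Btc (red) lies above it and those of Hbegf and Erbb4 (blue) lie below it.

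Of the ligands, heparin-binding EGF (Hbegf) was the one with the largest difference between groups among these 6. Its window was covered to 6.45% in control 1 and 7.51% in control 2, against 4.46% in test 1 and 5.81% in test 2. Both control tumors exceeded both test tumors, and the means of 6.98% ± 0.749 in control and 5.14% ± 0.952 in test tumors (SD, n = 2) differed by −1.84 points, with an SD of 0.989 points over the pairings (exact permutation p = 0.333, the smallest possible). Of the 18693 genes with a peak in the window 8.17% had a lower difference. The windows of myoepithelial, fibroblast and endothelial markers averaged 8.24%, 3.68% and 3.91% in control 1 and 7.42%, 3.46% and 3.39% in control 2, against 7.96%, 3.56% and 3.32% in test 1 and 5.25%, 2.36% and 2.82% in test 2, and their part in the Hbegf values was not tested. The fibroblast and endothelial averages came mostly from the Col1a1 and Pecam1 windows. The Hbegf promoter region is part of the Hbegf window, so its values are no separate result. It had 1748 and 2108 bp of peak in the control tumors against 540 and 1175 bp in the test tumors. The 3 annotated Hbegf starts had a peak within 1 kb in every tumor.

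The order at Hbegf held in the gene body alone, where the difference was −8.13 points, and with 10 kb flanks, at −5.51 points. With 100 kb flanks the difference was −0.871 points and the groups overlapped, and they also overlapped when coverage was scaled to that of all genes in each tumor, at −1.64 points. One region of the window was present in both control tumors and neither test tumor, 577 bp long, at −9783 to −9207 bp from the Hbegf start and nearest to Slc4a9, with 223 bp of peak in control 1 and 439 bp in control 2. A region 22007 to 23815 bp past the start, beyond the 3′ end, was by contrast similar in all 4 tumors with 1625, 1558, 1440 and 1757 bp. Hbegf lies at chr18:36504927-36515805 on the minus strand, and the widest region of its window, 3319 bp, covered the start of the neighbor Ankhd1.

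**Figure D3:**
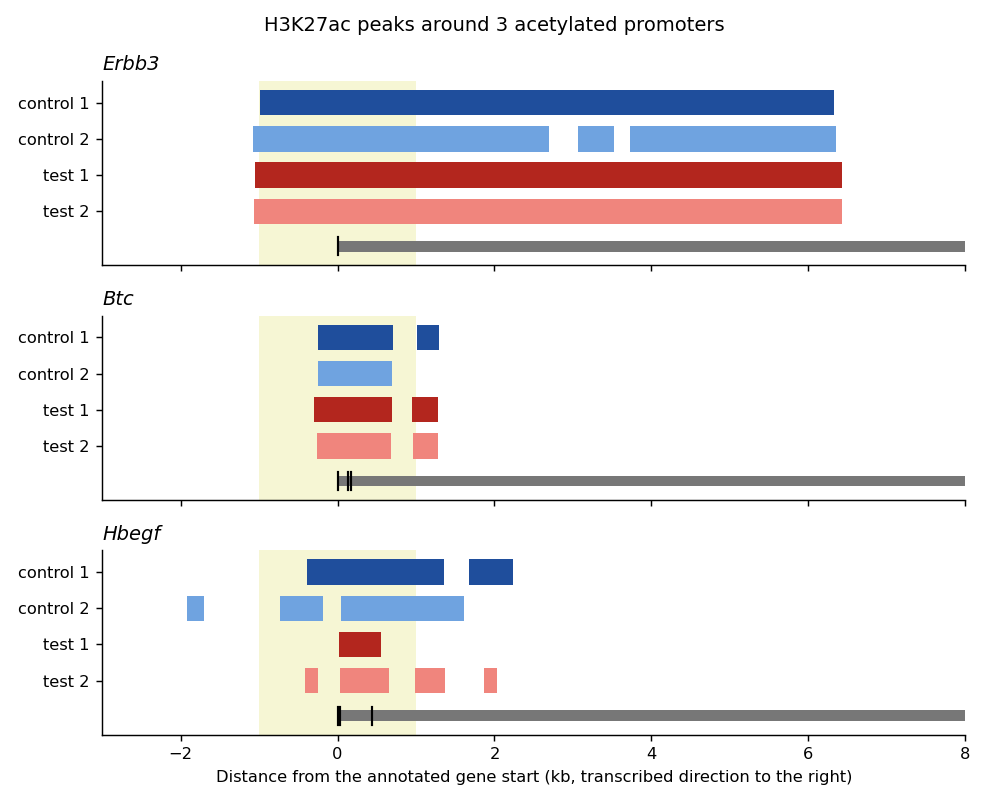
H3K27ac peaks (bars) of each tumor around the starts of Erbb3, Btc and Hbegf, by distance from the annotated gene start in kb; the gray bar is the gene with black ticks at annotated transcript starts, and shading marks 1 kb on either side. The Erbb3 domain reached 6430 bp into the gene, the second Btc peak was absent from control 2, and Hbegf had 540 bp of promoter peak in test 1 against 1748 bp in control 1.

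Betacellulin (Btc) had little acetylation beyond its promoter. The peaks covered 1226 bp in control 1 and 943 bp in control 2, against 1316 bp in test 1 and 1253 bp in test 2, which was 0.841%, 0.647%, 0.903% and 0.860% of the window. Both test tumors lay above both control tumors, by 0.0185 points in the closest pairing, with a mean difference of 0.137 points and an SD over the pairings of 0.115 points (exact permutation p = 0.333). The main promoter region was alike in all tumors, at 948, 943, 992 and 941 bp. A second peak 955 to 1287 bp past the start, with 278 bp in control 1, 324 bp in test 1 and 312 bp in test 2, was absent from control 2. Btc spans chr5:91357261-91402994 on the minus strand, and with 100 kb flanks its difference was −0.0250 points with overlapping groups. Counting only peaks at least 1 kb wide left Btc at 0 points, without a call. Its start at 25973 bp inside the gene had no peak in any tumor.

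Transforming growth factor alpha (Tgfa) was covered to 6.58% in control 1 and 7.46% in control 2, against 5.18% in test 1 and 8.28% in test 2. Test 1 was lowest and test 2 highest, with the control tumors between them, so the difference of −0.29 points was well inside the SD of 1.86 points over the pairings (exact permutation p = 1). The promoter peak followed the same order, at 1584, 1627, 1063 and 2047 bp. Tgfa, at chr6:86195223-86275719 on the plus strand, has no other protein-coding gene in its window. Of its 22 regions 13 lay in introns, 11 were present in all 4 tumors and 17 were nearest to the Tgfa start. The widest, 2450 bp in an intron 23163 to 25612 bp past the start, held 1935, 1857, 2026 and 1583 bp, and a region 70036 to 71759 bp past the start held 1482 and 1657 bp in the control tumors against 834 and 464 bp in the test tumors.

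Ereg, for epiregulin, and Areg, for amphiregulin, had no peak inside the gene body in any tumor. Their windows overlap, so peaks between them count for both. The Areg window (gene at chr5:91139599-91148432, plus strand) was covered to 3.77% in control 1 and 3.32% in control 2, against 2.46% in test 1 and 4.79% in test 2. The test tumors again held both extremes, with a difference of 0.077 points (SD over pairings 1.37, exact permutation p = 1). For Ereg, at chr5:91074622-91093646 on the plus strand, coverage was 5.15%, 3.33%, 2.25% and 3.63% in the same order of tumors. Control 1 was highest and test 1 lowest, and test 2 exceeded control 2, so the difference of −1.30 points was no larger than the SD of 1.33 points over the pairings (exact permutation p = 0.667).

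The regions of this pair that all tumors shared lay between the genes. A region of 2327 bp, at −30313 to −27987 bp from the Areg start, held 2027 bp of peak in control 1 and 1952 bp in control 2, against 1689 bp in test 1 and 2327 bp in test 2. Beside it a region of 1281 bp held 1281, 874, 984 and 862 bp. No other region of the pair of windows was found in all 4 tumors. At the Areg start, test 2 alone had a peak, 183 bp wide at −364 to −182 bp, printed above, while in the other tumors the nearest peak was 28089 bp (control 1), 17393 bp (control 2) and 28610 bp (test 1) away. Test 2 also had 1429 bp of peak 55904 to 57332 bp past the Areg start, where control 2 had 248 bp and the other tumors none. No tumor had a peak closer than 26494 bp to the Ereg start.

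Of the regions present in both control tumors and neither test tumor, 2 belonged to this pair of genes. One spans chr5:91037779-91038559, upstream of Ereg and 10315 bp from the start of the neighboring ligand gene Epgn, with 781 bp of peak in control 1 and 158 bp in control 2. It sits in a cluster of short peaks that test 1 lacked altogether. The other, chr5:91101116-91101484, lies between Ereg and Areg and had 342 and 168 bp.

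**Figure D4:**
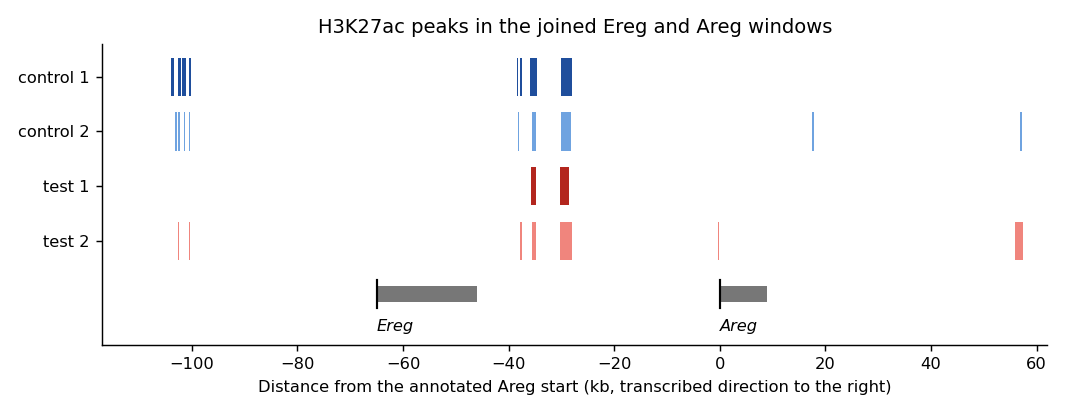
H3K27ac peaks (bars) of each tumor over the joined Ereg and Areg windows, by distance from the Areg start in kb, with gray bars for the genes and black ticks at their starts. The 2 regions shared by all tumors lie between the genes, the cluster about 100 kb upstream of Areg is missing in test 1, and test 2 alone has a peak at the Areg start.

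Nrg1, a gene of 1069 kb at chr8:31814551-32884029 on the minus strand with 15 annotated starts, was covered to 0.490% in control 1 and 0.177% in control 2, against 0.219% in test 1 and 1.03% in test 2. Test 2 stood above the other tumors and test 1 between the control tumors, so the groups overlapped, with a difference of 0.29 points and an SD of 0.50 points over the pairings (exact permutation p = 0.667). Peaks numbered 11, 6, 6 and 19. Of 25 regions, 17 were found in a single tumor, 12 of them in test 2, and 1 was found in all 4. That region, in an intron 782267 to 785622 bp past the gene start, held 2957, 1288, 1043 and 3241 bp. Thus test 2, which had the fewest peaks genome-wide, had the most in Nrg1.

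Starts of Nrg1 differed in their peaks. The 2 starts at the 5′ end of the gene had no peak within 1 kb in any tumor. A group of 5 internal starts, 874538 to 874920 bp downstream, had a peak in control 1, with 277 bp, and in test 2, with 1066 bp, and none in control 2 or test 1. The other 8 starts had none in any tumor.

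**Figure D5:**
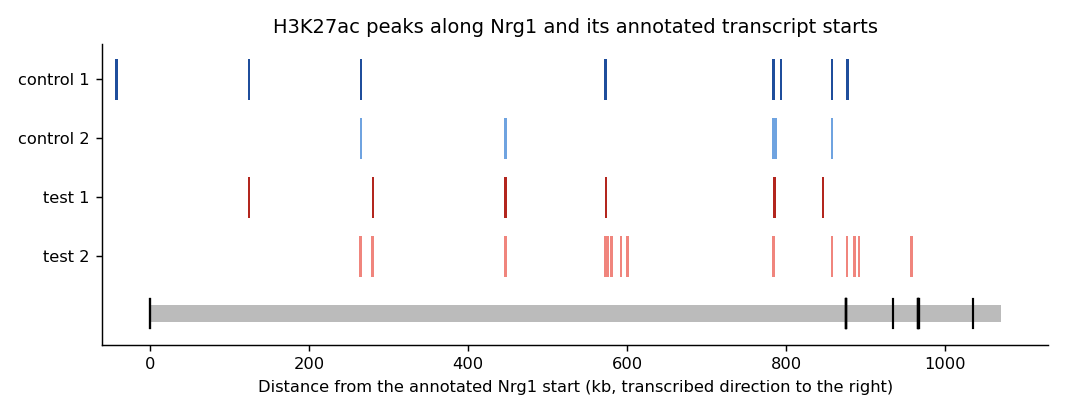
H3K27ac peaks (bars, with narrow peaks drawn wider than they are) of each tumor along Nrg1, by distance from the annotated gene start in kb. The gray bar is the gene and black ticks are annotated transcript starts. Test 2 has 19 peaks against 6 to 11 in the others, and the leftmost of the inner ticks marks the 5 starts with a peak in control 1 and test 2.

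Ranked by mean coverage over the 4 tumors, the windows ran Erbb2, Erbb3, Tgfa, Egfr, Hbegf, Ereg, Areg, Btc, Nrg1 and Erbb4. Only 3 neighbors in this order had ranges over the tumors that did not overlap, namely Erbb3 above Tgfa, Areg above Btc and Nrg1 above Erbb4. Erbb2 was higher than Erbb3 in 3 of 4 tumors. Windows of longer genes take in more intronic sequence, so this order describes the windows and not the strength of the genes.

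Taking every region once, the 10 windows held 126 regions. All 4 tumors shared 50 of them, 39.7%, where the share over all 91238 regions of the genome was 38.1%. Regions found in both control tumors and neither test tumor numbered 3, or 2.38%, beside 3.41% genome-wide, and none was found in both test tumors and neither control tumor, beside 1.47% genome-wide. Regions of a single tumor numbered 47, or 37.3%, beside 36.2% genome-wide, with 12 in control 1 and 11 in control 2, against 5 in test 1 and 19 in test 2. Genome-wide these tumors alone had 10.2%, 9.20%, 7.90% and 8.84% of regions, and 12 of the 19 in test 2 lay in the Nrg1 window. The shared regions were the wide ones, with a median of 1608 bp against 244 bp for those of a single tumor, although joining peaks of several tumors widens a region by construction. Introns held 56 regions, upstream flanks 23, downstream flanks 31 and gene starts 8. Shares of bases common to a pair of tumors did not follow the groups, since the Jaccard index was 0.639 between the control tumors, 0.579 between the test tumors and from 0.594 to 0.698 between groups, highest for control 1 and test 1.

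The other genes of the pathway were counted from lists of 47 genes. Both test tumors were higher for 5 of them and both control tumors for 9, and for 33 the groups overlapped, with a median difference of −0.161 points. Over all genes these shares were 17.3% and 13%. Promoter peaks in all 4 tumors were present at 41 of the 47, beside 49.6% of all promoters. Among 5 other ligands 1 window was higher in both control tumors, that of Epgn, which shares much of the Ereg window, with 1.89% and 0.897% in control and 0% and 0.507% in test tumors. Of 4 genes of ligand release, which free ligands from the cell surface, 2 were higher in both test tumors, beside 17.3% of all genes. These were the inactive rhomboid genes that guide the sheddase ADAM17. Rhbdf2 had 13.0% and 13.5% in control against 15.8% and 18.2% in test tumors, and Rhbdf1 had 9.19% and 10.07% against 11.4% and 10.10%, the latter apart by little.

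Of 17 signal relay genes, 3 were higher in both test tumors (Pik3ca, Akt2 and Nras) and 2 in both control tumors, with 12 overlapping and a median difference of 0.040 points. These counts are near the shares of 17.3% and 13% over all genes. Map2k1, the kinase MEK1 of the RAS-MAPK route, had 9.11% and 9.47% in control against 9.08% and 6.76% in test tumors. Akt2 had 5.39% and 6.63% in control and 7.61% and 6.73% in test tumors. Nras had 5.30% and 5.01% against 5.93% and 5.59%, and Pik3ca 4.22% and 4.29% against 4.50% and 4.36%. Grb7, inside the Erbb2 window, had 17.2%, 12.5%, 19.4% and 10.3%, with test tumors at both extremes as for Erbb2, whose bases it shares.

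Of 13 feedback inhibitors none was higher in both test tumors and 3 were higher in both control tumors, with a median difference of −1.24 points against 0.0192 points over all genes, of which 17.3% and 13% were called in these directions. These counts describe the list only. Lrig1, which promotes loss of ErbB receptors, had 17.1% and 16.2% in control against 13.97% and 14.89% in test tumors. Cblb, a ubiquitin ligase, had 3.2% and 4.14% against 2.43% and 2.45%. Spry2, an inhibitor of RAS-MAPK signaling, had 13.9% and 14.3% against 12.5% and 12.8%. The groups overlapped for the other 10.

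Of 8 downstream targets 3 were higher in both control tumors and none in both test tumors, with a median difference of −1.07 points, and the shares over all genes were 13% and 17.3%. Etv5, a transcription factor induced by MAPK signaling, had 16.9% and 21.1% in control against 13.95% and 15.87% in test tumors. Its relative Etv4 had 6.77% and 7.77% against 5.48% and 6.73%. Myc, a driver of growth, had 10.0% and 9.54% against 9.41% and 8.17%. The groups overlapped for the other 5. Coverage of the 47 windows averaged 12.1% and 11.8% in control and 12.2% and 11.1% in test tumors.

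For each receptor, the gene on another chromosome with the most similar coverage over the 4 tumors was sought, by mean absolute difference. Macf1 came closest to Egfr, at 0.183 points, Cox7a1 to Erbb3, at 0.131 points, and Lyzl4 to Erbb2, at 0.792 points. Trpc5 came closest to Erbb4, at 0.0110 points, both being almost without peaks. These likenesses are over 4 tumors and 18693 genes and are descriptions only.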

How the data were processed

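H3K27ac ChIP-seq of 4 breast tumors, 2 control and 2 test, was analysed. Groups followed the genotype in the labels, and tumor numbers only name a tumor. The authors used BWA for alignment to mm10 and MACS2 for peak calling against matched input, and 1 list per tumor was deposited. The deposited lists hold interval positions in base pairs, with no count, score or p-value. They had been cleaned and merged, and the smallest gap between intervals was 201 bp. The 4 input libraries were not analysed here. Gene positions were from GENCODE M21 (GRCm38), 21 chromosomes, and 0 intervals ended past a chromosome end.

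Coverage, union regions (1 bp of overlap) and promoter peaks (1 kb on either side) were computed with Python 3.11.15 and numpy 2.4.6, and tested on simulated data. A gene was called when the lower tumor of one group exceeded the higher of the other. Single genes were tested by an exact two-sided permutation of the 4 tumors (6 splits). The members and all lists were chosen with earlier results of these data known. All 10 genes are named. Listed pathway genes are named where the groups did not overlap or where they lie in a member window. The values of 1 such gene are not reported here. The widest region of each window, every region of one group alone and, chosen after their values were seen, some further regions are given. Alternatives were other flanks, peak filters, joining, scaling, nearest bases and leaving out each tumor.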

Additional observations from a re-analysis of the deposited data

How the results depend on the processing

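The mean difference over the 10 windows, −0.211 points, was −0.675 points with 10 kb flanks and −0.905 points for the gene body alone. It was −0.0662 points with coverage scaled to all genes, −0.0803 points with peaks at least 1 kb wide and −0.119 points with equal peak numbers, and ranged from −0.599 to 0.176 points when each tumor was left out, positive without control 1. Windows higher in both test tumors numbered 1. They numbered 2 with 10 kb flanks, for the gene body alone and over bases nearest to the gene's own start (Erbb3 and Btc in each), 0 with 100 kb flanks, and 2 to 4 when a tumor was left out. With peaks at least 1 kb wide the 1 window was that of Erbb3 and not Btc. Windows higher in both control tumors numbered 2, and with 100 kb flanks they were Erbb4 and Ereg in place of Erbb4 and Hbegf. They numbered 1 with peaks at least 1 kb wide (Hbegf) and 1 with coverage scaled to all genes (Erbb4), and 2 to 5 when a tumor was left out. With a tumor left out, 1 tumor stands for its group in these window counts too. The shares of all genes called under these alternatives are not given here, so the counts describe the 10 windows only. Regions of the control tumors alone numbered 3, and 5 with 100 kb flanks, 0 in gene bodies, 1 when tumors were held to equal peak numbers and 1 with peaks within 1 kb joined. Regions of the test tumors alone numbered 0, and 1 with 100 kb flanks and 2 when at least 50% of a region had to be covered. Leaving out a tumor gave 6 to 16 control and 2 to 19 test regions, since 1 tumor then stands for its group. The Btc difference changed sign with 100 kb flanks, to −0.0250 points, and the cause was not tested. With peaks within 1 kb joined, Ereg was higher in both control tumors, at −2.86 points. Of 120 differences of single genes under alternatives, 106 moved by less than the spread between tumors, but 26 had another sign than the values given above, among them Erbb2 (−1.93 points in the gene body) and Egfr (−0.42 points with 100 kb flanks). The count of promoters with a peak in all 4 tumors was 6, and 4 with peaks at least 1 kb wide, without Btc and Hbegf. No paired analysis was possible because the labels give no replicate numbers shared between the groups. Read depth is unknown, and 2 tumors per group and positions without peak heights limit every comparison.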
